A study of Homo sapiens with 6 samples.

Results

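The genes described here are the cyclin-dependent kinase inhibitors, 8 named genes of the 52989 genes to which transcripts of the deposited tables could be matched. They are the CIP/KIP genes CDKN1A, CDKN1B and CDKN1C, the INK4 genes CDKN2A, CDKN2B, CDKN2C and CDKN2D, and CDKN3. They were chosen by name, and the estimated counts of all matched transcripts of each were summed. RNA was sequenced from J82, an established human bladder cancer cell line, in a line that makes ZFP36L1 when doxycycline is added (tet-ZFP36L1) and in its control line (tet-control). Each line was taken without doxycycline (0 h) and after 6 and 24 h with the drug at 1 µg/mL, so there were 6 groups of 1 library each, and values of a line are given below in the order 0, 6 and 24 h. Both lines received the drug. The sources used here do not say whether each line is a single clone, or what the control line carries. With 1 library per group no test between groups was run, and intervals are 95% intervals of counting error alone.

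Progression through the cell cycle is driven by cyclin-dependent kinases, which act when bound to a cyclin. CIP/KIP proteins bind cyclin-CDK complexes of several kinds and inhibit mainly those of CDK2, whereas INK4 proteins bind CDK4 and CDK6 and keep D-type cyclins off them. CDKN3 encodes a phosphatase that removes an activating phosphate from CDK2, and its mRNA is made mostly late in the cycle. ZFP36L1 belongs to a family of RNA-binding proteins that bind AU-rich elements of mRNAs and promote their decay, and loss of the INK4 genes on chromosome 9 is common in bladder cancer.

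The libraries held 20739025 to 21380480 estimated counts each. ZFP36L1 itself matched the labels: tet-ZFP36L1 had 220, 3127 and 3133 CPM (TMM-scaled counts per 1000000), against 206 to 234 CPM in tet-control. Epithelial markers summed to 662 to 1629 TPM, mostly from the keratins KRT8 (210 to 628 TPM), KRT18 (347 to 765 TPM) and KRT7 (99.4 to 324 TPM). EPCAM was low, at 2.77 to 4.48 TPM, and KRT19 and CDH1 had only 0 to 5 and 2 to 14 counts. The basal marker CD44 was present (507 to 1011 TPM), as were the luminal markers ERBB2 (8.91 to 28.2 TPM), FOXA1 (4.67 to 10.7 TPM) and PPARG (1.21 to 14.1 TPM). Of the 19 luminal and basal urothelial markers, UPK2, UPK3A, UPK3B, KRT20, KRT5, KRT6B, KRT14 and CDH3 had at most 3 counts in every library. UPK1A, UPK1B, KRT6A, TP63 and DSG3 were also low, with at most 13 counts in any library. GATA3 reached at most 28 counts, and KRT17 ranged from 0 to 134 counts. Immune and endothelial markers summed to at most 0.927 and 0.438 TPM. The mesenchymal markers summed to 670 to 4008 TPM, and FN1 stood at 101 TPM in uninduced tet-control against 2579 TPM in uninduced tet-ZFP36L1, so the lines differed before induction in more than the inhibitors. The tet-ZFP36L1 library at 24 h had a TMM factor of 1.11, against 0.941 to 1.01 elsewhere. The part of these differences in the results was not tested. Differences at 6 h use that library only in the scaling and the count minimums, which come from all 6 libraries.

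The members differed widely in level. On the TPM scale, which corrects for transcript length and so allows genes to be compared, CDKN3 was the highest in every library, from 153 to 272 TPM with a median of 201 TPM. CDKN2A was next in every library, from 58.0 to 100.1 TPM, and its range did not overlap that of CDKN3, although the matched transcripts may not hold all of its reads. This rank depends on the assignment of most CDKN2A reads to the short transcripts CDKN2A-212 (678 bases) and CDKN2A-210 (748 bases). By counts CDKN2A was below CDKN2C in every library. CDKN2C had 25.8 to 71.6 TPM, CDKN1A 13.3 to 54.7 TPM and CDKN1B 22.6 to 39.1 TPM. These ranges overlapped, and the order of the 3 genes changed between libraries. CDKN2D, at 4.45 to 20.5 TPM, stood above CDKN2B, at 3.28 to 10.5 TPM, within every library, although their ranges overlapped. CDKN1C was the lowest throughout, from 0 to 1.04 TPM. No member was missing from J82 by the rule used here, which was at most 3 counts in every library, but CDKN1C met that count in 4 of the 6 libraries.

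**Figure D1:**
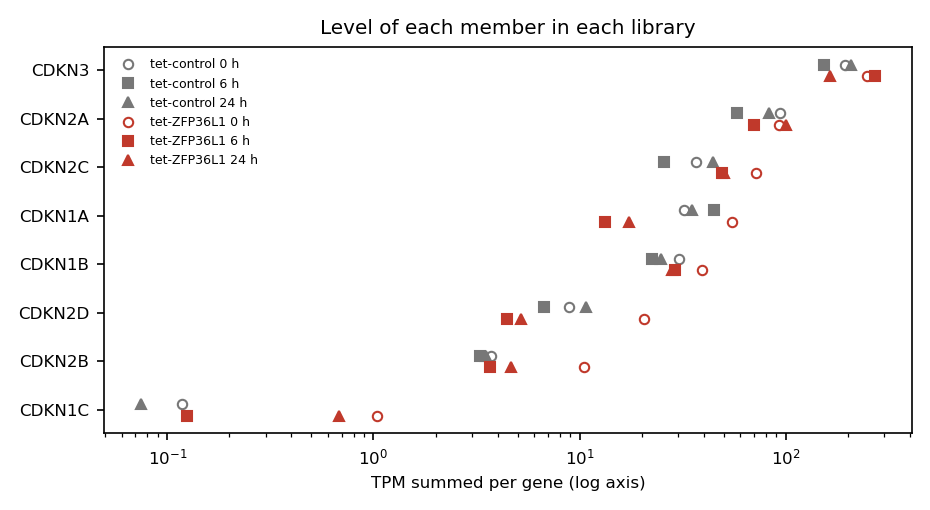
Level of each of the 8 genes in each library, as TPM summed per gene on a log axis. Grey stands for tet-control and red for tet-ZFP36L1, with an open circle at 0 h, a square at 6 h and a triangle at 24 h. CDKN3 lies at 153 to 272 TPM and CDKN1C at or below 1.04 TPM, and its library at 0 TPM is not drawn.

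Before induction most of the inhibitors were already higher in tet-ZFP36L1 than in tet-control. Of the 7 members with a mean count of at least 50, 6 were higher in tet-ZFP36L1 at 0 h with a counting interval above 0. The interval of CDKN2A included 0. The share of all genes with an interval above 0 was not computed. In bulk samples, fewer cells with a transcript and less of it per cell cannot be told apart. CDKN2B and CDKN2D were at least 2-fold higher, and none was 2-fold lower. Among all 11908 genes with such a mean count, 5.05% were at least 2-fold higher and 2.77% lower. The median log2 difference was 0.76 over the 7 members and 0.00 over all genes. With a pseudocount of 5 CPM in place of 0.5, 0 members passed 2-fold. For 5 of the 7, uninduced tet-ZFP36L1 was the library with the highest CPM of all 6, the exceptions being CDKN2A and CDKN3. How many of all genes were highest in that library was not computed. The inhibitors therefore did not start level, and the comparison that follows carries this starting difference.

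For each gene the change of tet-control since 0 h was subtracted from that of tet-ZFP36L1, which gives its induction difference, on log2(CPM + 0.5), a scale that understates the changes of genes with few counts. CDKN1A and CDKN2D were at least 2-fold lower by it at 6 h and at 24 h, and no other member passed 2-fold in either direction. Of all genes, 4.69% were 2-fold lower and 1.6% higher at 6 h. The shares at 24 h were 6.5% lower and 4.69% higher. The median of the 7 members was -0.06 at 6 h and -0.92 at 24 h, where the median of all genes was -0.01 and -0.02. Both times share the 0 h libraries. Set against tet-control at the same time, which leaves the 0 h libraries out, CDKN1A alone was 2-fold lower at 6 h (6.13% of all genes lower, 5.14% higher). At 24 h CDKN1A and CDKN2D were lower (8.32% of all genes lower, 8.91% higher), and no member was 2-fold higher at either time.

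**Figure D2:**
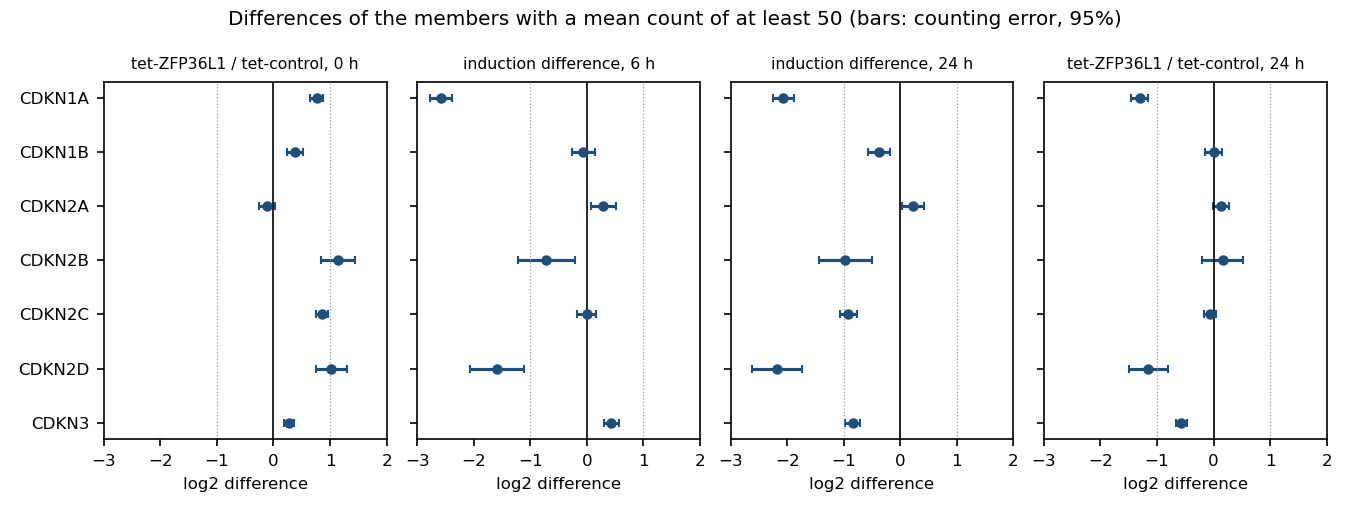
Log2 differences of the 7 members with a mean count of at least 50, with 95% counting intervals as bars and dotted lines at 2-fold. CDKN1A (-2.58 and -2.07) and CDKN2D (-1.59 and -2.18) lie beyond 2-fold in the induction difference at 6 and 24 h, and 6 of the 7 genes lie above 0 in the comparison of the lines at 0 h.

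Within tet-ZFP36L1, CDKN1A, CDKN2B and CDKN2D were at least 2-fold below their own 0 h level at 6 h and at 24 h, and none was 2-fold above it. The shares of all genes were 5.43% below and 2.1% above at 6 h. At 24 h they were 6.24% below and 3.38% above. In tet-control no member passed 2-fold at either time, where the shares of all genes were 2.23% below and 2.43% above at 6 h and 0.428% and 0.378% at 24 h. At 6 h, however, 6 of the 7 members were below their 0 h level in tet-control as well, with CDKN1A the exception, and the members' median change there was -0.39 against -0.01 over all genes. The share of all genes below their 0 h level by any amount was not computed, so the count of 6 is no result about the members.

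**Figure D3:**
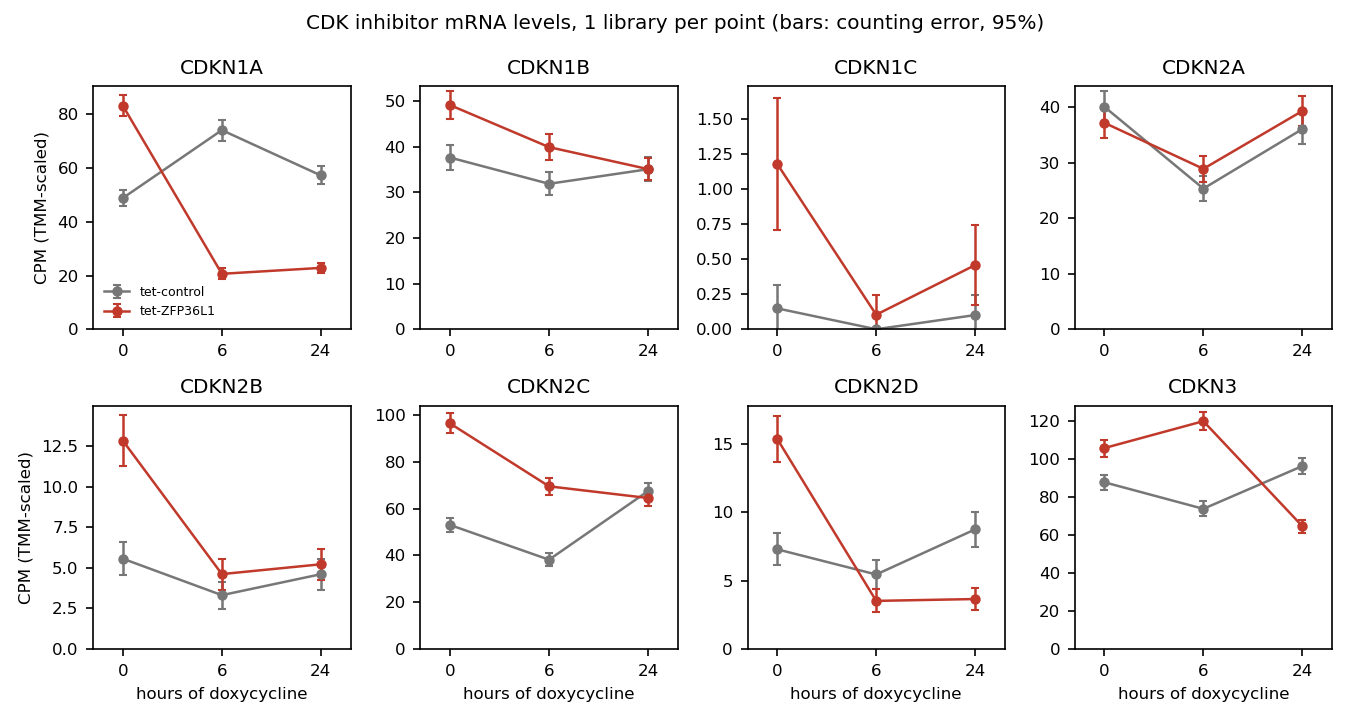
Level of each of the 8 genes at 0, 6 and 24 h with doxycycline, in TMM-scaled CPM, with tet-control in grey, tet-ZFP36L1 in red and 95% counting error as bars, 1 library per point. CDKN1A lies at 48.8, 74.1 and 57.2 CPM in tet-control, and at 83.1, 20.6 and 22.8 CPM in tet-ZFP36L1.

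CDKN1A (ENSG00000124762; GRCh38 chromosome 6, 36676460 to 36687339, plus strand) encodes p21, an inhibitor induced after DNA damage. In tet-control it had 48.8, 74.1 and 57.2 CPM, from 984, 1385 and 1131 counts. In tet-ZFP36L1 it had 83.1, 20.6 and 22.8 CPM, from 1693, 398 and 499 counts. With doxycycline the tet-control values lay above their 0 h level and the tet-ZFP36L1 values below theirs: each induced value of tet-ZFP36L1 was under every tet-control value, and the uninduced value lay above them all. The induction difference was -2.58 (-2.77 to -2.39) at 6 h and -2.07 (-2.26 to -1.88) at 24 h, of which the change of tet-control, at 0.60 and 0.23, makes up the smaller part. Only 30 of the 11908 genes had a lower value at 6 h and 51 at 24 h. Against tet-control at the same time it was -1.82 (-1.98 to -1.66) at 6 h and -1.31 (-1.46 to -1.16) at 24 h.

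Most CDKN1A counts were assigned to a single transcript. CDKN1A-201, of 2180 bases, held 83.4% to 98.5% of the gene's estimated counts per library, and CDKN1A-203 held 0 to 107 estimated counts. The 3' UTR of CDKN1A-201 has 1539 bases and holds no copy of TATTTAT, the AU-rich heptamer that ZFP36-family proteins are known to prefer, on the transcript's own strand. TATTTAT was present in 32.3% of 1467 genes whose 3' UTR had a like length (the shorter at least 0.8 times the longer). It does hold 3 copies of the shorter core ATTTA, which 85.0% of those genes hold at least once. They are shown because CDKN1A had the lowest induction difference of the members at 6 h. They lie on GRCh38 at chr6:36685899-36685927, chr6:36685965-36685993 and chr6:36686037-36686065, plus strand, with ATTTA in capitals:
CDKN1A-201, position 110 of the 3' UTR: tttgtgttttaATTTAaacacctcctcat
CDKN1A-201, position 176: gcattagaattATTTAaacaaaaactagg
CDKN1A-201, position 248: tatgaaatactATTTAaagcctcctcatc

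CDKN1B (ENSG00000111276; chromosome 12, 12715058 to 12722371, plus strand) encodes p27, which restrains CDK2 in resting cells. Tet-control had 37.6, 31.8 and 35.0 CPM and tet-ZFP36L1 49.1, 39.9 and 35.1 CPM. Its values drew together: the lines differed by 0.38 (0.25 to 0.51) at 0 h and by 0.00 (-0.15 to 0.15) at 24 h. Its induction difference was -0.06 (-0.26 to 0.14) at 6 h, an interval that includes 0, and -0.38 (-0.58 to -0.18) at 24 h. CDKN1B-201 held 76.2% to 84.0% of its estimated counts and has a 3' UTR of 1344 bases with 2 copies of TATTTAT, which 29.6% of 1489 genes with a like 3' UTR length hold. They are shown because, of the 7 members searched by their transcript of highest TPM, CDKN1B was the only one with TATTTAT there. They lie at chr12:12721533-12721561 and chr12:12722126-12722154, plus strand, with TATTTAT in capitals:
CDKN1B-201, position 517 of the 3' UTR: aagataattgcTATTTATttttacaagaa
CDKN1B-201, position 1110: ttatactaactTATTTATgttaaaagatt

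A match of letters is a description and not a binding site. The shorter transcript CDKN1B-202 has a 3' UTR of 261 bases without TATTTAT. Its estimated counts were 169, 116 and 133 in tet-control and 193, 109 and 142 in tet-ZFP36L1.

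CDKN1C (ENSG00000129757; chromosome 11, 2883213 to 2885773, minus strand) encodes p57, an imprinted inhibitor active mainly in development. Tet-control had 3, 0 and 2 counts of it and tet-ZFP36L1 24, 2 and 10 counts. The uninduced tet-ZFP36L1 library was the highest, at 1.18 CPM. Its mean of 6.83 counts was below the minimum of 50, so it was not among the 7 members counted above. Its counting intervals, approximate at so few counts, left out 0 for the change of tet-ZFP36L1 at 6 h, -1.48 (-2.01 to -0.94), and for the difference of the lines at 0 h, 1.37 (0.82 to 1.92). The induction difference was -1.10 (-1.75 to -0.45) at 6 h and -0.70 (-1.47 to 0.08) at 24 h. With no count minimum CDKN1C therefore joined the members 2-fold lower at 6 h and those 2-fold higher at 0 h, making 3 in place of 2 each time.

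CDKN2A (ENSG00000147889; chromosome 9, 21967753 to 21995301, minus strand) encodes 2 unrelated proteins from different first exons. Exon 1-alpha starts the INK4 protein p16, and exon 1-beta, further upstream, starts p14ARF, which acts outside the INK4 pathway. Tet-control had 40.1, 25.4 and 36.1 CPM and tet-ZFP36L1 37.2, 28.9 and 39.4 CPM. Both lines were lowest at 6 h. Its induction difference was 0.29 (0.07 to 0.52) at 6 h and 0.23 (0.03 to 0.43) at 24 h, and of the 7 members CDKN2A was the only one with a positive difference at both times. Its sum is uncertain: it was not whole in the libraries (up to 0.451 from a whole number), so reads were shared with transcripts outside the sum, and transcripts with identifiers absent from the annotation were not used here. How many of its reads lie outside the matched transcripts was not measured, so the level, the rank after CDKN3 and the shares that follow hold for the matched transcripts only.

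Of 14 matched CDKN2A transcripts, 4 carry an exon that overlaps exon 1-alpha (chr9:21974678-21975098), and together they held 0 to 9.71 estimated counts per library, 0 to 1.36% of the gene. CDKN2A-201, the annotated p16 transcript of 3 exons, was listed at 0 in all 6 libraries. The 5 transcripts with exon 1-beta or an exon further upstream (chr9:21994139-21995301) held 156 to 361 estimated counts, 28.2% to 42.0% of the gene, with 148 to 314 of them in CDKN2A-210, a transcript of p14ARF. The remaining 57.9% to 71.8% went mainly to CDKN2A-212, which starts in the intron just upstream of exon 2 and has neither first exon. On the matched transcripts, J82 thus carried CDKN2A RNA in every library with almost no estimated counts on the p16 exon. How reads of the exons shared by these transcripts were divided is an estimate of kallisto.

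The difference lies in what is joined to exon 2. The sequences below are the last 20 bases of each first exon in capitals and the first 20 bases of exon 2 (chr9:21971189-21971208, minus strand) in lower case. The upstream bases lie at chr9:21974678-21974697 for CDKN2A-201 and chr9:21994139-21994158 for CDKN2A-210:
CDKN2A-201, exon 1-alpha: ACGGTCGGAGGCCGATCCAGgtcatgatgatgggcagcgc
CDKN2A-210, exon 1-beta: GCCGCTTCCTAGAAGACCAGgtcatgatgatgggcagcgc

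**Figure D4:**
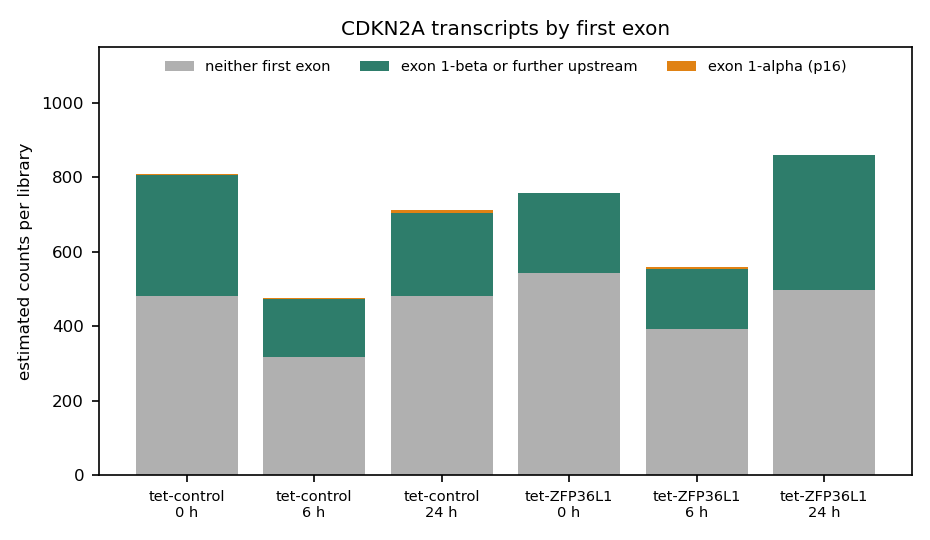
Estimated counts of the 14 matched CDKN2A transcripts per library, stacked by the first exon they carry and not scaled for depth. The 4 transcripts with exon 1-alpha sum to at most 9.71 estimated counts in any library, against 156 to 361 for those with exon 1-beta or an exon further upstream.

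CDKN2B (ENSG00000147883; chromosome 9, 22002903 to 22009363, minus strand) lies next to CDKN2A and encodes p15, which TGF-beta induces. It was lowly expressed, with 112, 62 and 91 counts in tet-control (5.56, 3.32 and 4.61 CPM) and 261, 89 and 114 counts in tet-ZFP36L1 (12.8, 4.61 and 5.22 CPM). The uninduced tet-ZFP36L1 library stood above the other 5, which lay between 3.32 and 5.56 CPM. The lines differed by 1.14 (0.84 to 1.43) at 0 h and by 0.16 (-0.20 to 0.52) at 24 h, an interval that includes 0. Its change within tet-ZFP36L1 was -1.38 at 6 h and -1.22 at 24 h. Between the lines the induction difference was -0.71 (-1.22 to -0.21) at 6 h and -0.97 (-1.44 to -0.51) at 24 h, short of 2-fold. At 6 h it came to -1.24 with the deposited TPM and to -0.20 with protein-coding transcripts alone. At 24 h it passed 2-fold with the deposited TPM (-1.03) and with a pseudocount of 0.1 (-1.01), which makes 3 members lower in place of 2. The retained-intron transcript CDKN2B-203 held 19.6% to 42.9% of its estimated counts. Of the 4051 words of 31 bases in CDKN2B, 70 are shared with CDKN2A and 336 with other genes in all. The sum of CDKN2B was up to 0.309 from a whole number. CDKN2B-AS1, the antisense RNA of the locus, had 36 to 63 counts, and 7.02% of the words of CDKN2A occur on its opposite strand, so those reads may not be separable.

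CDKN2C (ENSG00000123080; chromosome 1, 50960745 to 50974633, plus strand) encodes p18, an INK4 protein expressed in cycling cells. Tet-control had 52.97, 38.2 and 67.4 CPM and tet-ZFP36L1 96.3, 69.5 and 64.5 CPM. It was 0.86 (0.75 to 0.96) above tet-control at 0 h, 0.86 (0.73 to 0.99) above it at 6 h and -0.06 (-0.17 to 0.04) from it at 24 h. Its induction difference was accordingly 0.00 (-0.17 to 0.17) at 6 h and -0.92 (-1.07 to -0.77) at 24 h. At 24 h the 2 lines met, with tet-control 0.35 above its 0 h level and tet-ZFP36L1 0.57 below its own.

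CDKN2D (ENSG00000129355; chromosome 19, 10566462 to 10569059, minus strand) encodes p19, the other INK4 protein whose mRNA follows the cell cycle. It had 147, 102 and 173 counts in tet-control (7.30, 5.46 and 8.76 CPM) and 313, 68 and 80 counts in tet-ZFP36L1 (15.4, 3.53 and 3.66 CPM). As for CDKN1A, the uninduced tet-ZFP36L1 library was the highest and the induced ones were the lowest of the 6. The difference by induction was -1.59 (-2.07 to -1.11) at 6 h and -2.18 (-2.62 to -1.74) at 24 h, and 129 and 41 of the 11908 genes had lower values. Against tet-control at the same time it was -0.57 (-0.96 to -0.17) at 6 h and -1.15 (-1.50 to -0.81) at 24 h. Its low counts make it depend on the pseudocount: with 5 CPM the induction differences were -1.02 and -1.40, still past 2-fold.

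CDKN2D has 2 transcripts with different 3' ends, of which the longer holds TATTTAT. CDKN2D-201 (3' UTR of 457 bases, no TATTTAT, 1 ATTTA) had 91.5, 77.8 and 129 estimated counts in tet-control and 237, 45.8 and 61.5 in tet-ZFP36L1. CDKN2D-202 (3' UTR of 596 bases, 1 TATTTAT) had 55.5, 24.2 and 44.4 in tet-control and 76.0, 22.2 and 18.5 in tet-ZFP36L1. Both transcripts had fewer estimated counts in induced than in uninduced tet-ZFP36L1, and the part of the heptamer was not tested. How reads were divided between the 2 transcripts is an estimate of kallisto, and their counts are not scaled for depth. The sites lie at chr19:10566738-10566766 and chr19:10566523-10566551, minus strand, and CDKN2B-201, which held 40.5% to 71.1% of the CDKN2B counts, has its only TATTTAT at chr9:22004876-22004904, minus strand:
CDKN2D-201, position 303 of the 3' UTR: aagggcagagcATTTAagagtgaagtcat
CDKN2D-202, position 518: gaaatggattcTATTTATtatgctttatt
CDKN2B-201, position 1094: tcttcttaaccTATTTATttctttgttaa

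CDKN3 (ENSG00000100526; chromosome 14, 54396849 to 54420218, plus strand) had a pattern of its own among the members. Tet-control had 87.6, 73.6 and 96.1 CPM and tet-ZFP36L1 105.5, 119.7 and 64.5 CPM. Its highest library was induced tet-ZFP36L1 at 6 h and its lowest the same line at 24 h. The induction difference was 0.43 (0.30 to 0.56) at 6 h and -0.84 (-0.97 to -0.70) at 24 h, both short of 2-fold. Of its 10 matched transcripts, CDKN3-202, which encodes the full-length phosphatase, held 22.0%, 32.8% and 23.9% of the gene's estimated counts in tet-control. In tet-ZFP36L1 it held 21.1% and 17.6% at 0 and 6 h and 7.22% at 24 h, where its estimate was 102 counts against 405 at 6 h. CDKN3-204, a shorter coding form, had 620, 818 and 568 estimated counts at those times. The division of reads among the CDKN3 transcripts is an estimate of kallisto, and these counts are not scaled for depth. The 3' UTRs of the 7 CDKN3 transcripts searched held no TATTTAT.

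Genes around the inhibitors were described from lists chosen with earlier results of these data known. Their counts stand against the 4.69% of all genes 2-fold lower at 6 h and the 6.5% at 24 h, and the 1.6% and 4.69% higher. A single gene of 13 to 25 is near those shares and is no result about its list. Of 13 CDKs, cyclins and other proteins bound by the inhibitors, 12 were measured, and 2 were 2-fold lower at 6 h and 5 at 24 h by the induction difference, with none higher. The median was -0.38 at 6 h and -0.74 at 24 h. They were CCND1, which encodes cyclin D1 (-1.27 and -1.86), CCNE2, a cyclin of CDK2 (-1.10 and -1.13), and at 24 h alone CDK1 (-1.42), CCNA2 (-1.29) and CCNB1 (-1.11). CDK2 stood at -0.38 and -0.50, CDK4 at 0.44 and 0.16, and CDK6 at -0.82 and -0.28. At 6 h CDK6 rose in tet-control (0.91) and changed little in tet-ZFP36L1 (0.09), so its value at 6 h stems from tet-control. All 13 pocket protein and E2F genes were measured, with medians of -0.51 and -0.55. RB1, the target of CDK4 and CDK6, was the only one past 2-fold, at -0.99 at 6 h and -1.52 (-1.63 to -1.41) at 24 h. It stood at 209, 104 and 73.7 CPM in tet-ZFP36L1 and at 171, 169 and 174 CPM in tet-control. E2F1 was at -0.93 and -0.80, and TFDP2, a dimer partner of E2F proteins, at 0.62 and 0.99.

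**Figure D5:**
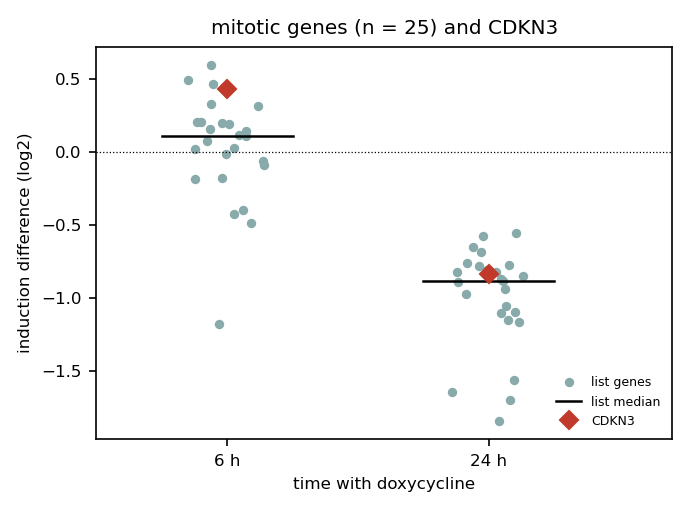
Induction difference (log2) at 6 and 24 h of 25 mitotic genes with CDKN3, as a point per gene, with black lines at the list medians and CDKN3 as a red diamond. CDKN3 at 24 h (-0.84) lies near the mitotic median of -0.88.

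Of 25 mitotic genes expressed at the same phase as CDKN3, 1 was 2-fold lower at 6 h and 9 at 24 h, with none higher, and the medians were 0.11 and -0.88. CDKN3 lay above 22 of them at 6 h and above 15 at 24 h. UBE2C, which passes ubiquitin to mitotic cyclins, was the lowest at both times (-1.18 and -1.85), followed at 24 h by the kinase PLK1 (-1.70), the kinase AURKA (-1.64) and HMMR (-1.56). CDC25C was at 0.60 at 6 h and -0.89 at 24 h, the same order of signs as CDKN3. Of 16 ubiquitin ligase parts that degrade p21, p27 or p57, 0 passed 2-fold at 6 h and 1 at 24 h, with medians of 0.08 and -0.18. That gene was CKS1B, the cofactor of SKP2 for p27, at -1.46, while SKP2 stood at 0.05 and -0.12 and DTL, a substrate receptor for p21, at -0.60 and -0.81.

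Known regulators of the inhibitors gave mixed counts. Of 19 measured transcription factors of the CIP/KIP genes, 3 were lower and 1 was higher at 6 h. At 24 h the count was 2 lower and 3 higher. KLF6, an activator of CDKN1A, was at -1.28 and -1.39, CEBPB at -1.44 and -1.01, and SMAD3 at -1.33 at 6 h. EGR1 was higher at 1.61 and 1.17, and at 24 h so were KLF4 (1.32) and FOXO4, a forkhead factor known to act on CDKN1B (1.83). Of 19 measured regulators of the INK4 locus, 1 passed 2-fold at 6 h, TBX2 at -1.003 (-1.63 to -0.37), and 0 at 24 h, with medians of -0.29 and -0.06. ETS2, an activator of CDKN2A, was at -0.97 and -0.76, and EZH1 at 0.47 and 0.79. MTAP, the neighbour of CDKN2A, was at -0.97 and -1.08, in contrast to CDKN2A, and KLHL9 at -0.09 and 0.54. Among 16 RNA-binding proteins known to bind CDKN1A or CDKN1B mRNA, ZFP36L1 was the only one higher at either time. ZFP36L2, its relative, was at -2.62 and -2.04, ZFP36 at -1.04 at 24 h and MSI2 at -1.08 at 6 h. Of 11 measured senescence-associated genes, 5 were lower at each time and none was higher, with medians of -0.51 and -0.84. At 6 h, 3 of the 11 fell at least 2-fold within tet-ZFP36L1, while in tet-control 4 rose at least 2-fold and 1 fell. At 24 h, 5 fell at least 2-fold within tet-ZFP36L1 and 0 passed 2-fold in tet-control. The lines already differed at 0 h, where 3 were at least 2-fold lower in tet-ZFP36L1 and 2 higher. IL6 was at -3.40 and -2.30 and CXCL8 at -2.76 and -1.78. CCNB1, CCNB2 and CDC20 stand on 2 lists each. MDM2, a ubiquitin ligase, was at -0.86 and -1.16.

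The members did not share a single pattern over the 6 libraries, which hold the same lines and times and are not independent. Pearson's r of log2(CPM + 0.5) was 0.83 between CDKN1A and CDKN2D and 0.93 between CDKN1B and CDKN2B, but -0.09 between CDKN1A and CDKN2C. Among 11078 protein-coding genes, those most like CDKN1A were DCTN6 and ZFP36L2 (r of 0.99 each) and FXR2 (0.99), and 428 genes had an r over 0.9. For CDKN2D they were PIGP, UBE2B and COL4A3BP (0.99 each). The other members were most like FAM208A, ITM2B and CTNNB1 (CDKN1B), KHDC1, RHOF and DSN1 (CDKN2A), ICK, ATP8B3 and FZD8 (CDKN2B), AHNAK2, VPS26A and HMGB3 (CDKN2C), and PCMT1, MRPL50 and GDI2 (CDKN3), with r from 0.98 to 1.00. With 6 points such values are common, as the counts of genes over 0.9 (56 to 428 per member) show. An r also takes no account of the size of a change. The log2 range of these like genes over the 6 libraries ran from 0.07 (DSN1) to 2.24 (ZFP36L2).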

How the data were processed

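Kallisto, DESeq2 and hg19 are named in the submitters' processing notes, which give no versions. The deposited tables list 196354 transcripts with estimated counts, which the authors obtained per transcript and which need not be whole, and TPM values, which are deposited scaled for length and depth. By identifier, 181854 of them have an entry in GENCODE 29 (GRCh38). Unmatched ones held 5.12% to 5.47% of the counts per library and were left out. Positions are those of GRCh38, not of hg19. Gene sums of estimated counts were rounded and scaled by TMM (edgeR 4.0.16, R 4.3.3), using genes that average 10 counts or more. Differences use log2(CPM + 0.5), where 0.5 CPM is about 10 counts, in genes that average 50 counts or more. Intervals are 95% delta-method intervals from counts. They cover counting error only, since each group has 1 library. PCR copies were not marked by molecular identifiers, and their part in that error was not measured. Sums of 6 members were whole within 0.02 in every library. The sources used here do not state strand use, so antisense partners may share reads.

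Each group has 1 library, so no test was run. A member was called at a 2-fold difference. The members, lists and rules were chosen with earlier results of these data known. Named genes are the members, ZFP36L1, RB1, MDM2, SKP2, CDK2, CDK4, CDK6, CCND1, E2F1, CDKN2B-AS1, the 2 largest differences per list and time, and the 3 most like each member; other genes past 2-fold are named where counts were small, as are marker genes, and these were chosen after their values were seen. Some items covered by the rule are not reported here. The 3' UTRs come from the coding transcript with the highest mean TPM per gene (at least 50 bases), and TATTTAT and ATTTA were searched on the sense strand. The calculation of differences and intervals was run on simulated counts in which 200 genes had known fold changes. Those counts were Poisson draws from a single profile shared by all libraries, scaled by library totals. Transcript matching, TMM scaling and a line difference at 0 h were therefore not tested by it. Alternatives included DESeq2 1.42.0 size factors, and figures used Python 3.11.15 with numpy 2.4.6, pandas 2.3.3 and matplotlib 3.10.9.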

Additional observations from a re-analysis of the deposited data

Results flagged for a closer look

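In 3 members the 2 lines lay on opposite sides of their 0 h levels, each outside its counting interval. CDKN1A was above 0 h in tet-control and below it in tet-ZFP36L1 at both times, with an induction difference of -2.58 at 6 h and -2.07 at 24 h. CDKN3 was below 0 h in tet-control (-0.25) and above it in tet-ZFP36L1 (0.18) at 6 h, a difference of 0.43. At 24 h its signs were the other way round (0.13 and -0.71), a difference of -0.84. CDKN2C was above 0 h in tet-control (0.35) and below it in tet-ZFP36L1 (-0.57) at 24 h, a difference of -0.92. These differences between the lines were not tested, since each group has 1 library. The share of all genes with such opposite changes was not computed, so the count of 3 is no result about the members.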

How the results depend on the processing

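No paired analysis was possible because each group has 1 library, so the groups share only a single replicate number. A model of line plus time was not run. The call of CDKN1A and CDKN2D as 2-fold lower at 6 and 24 h held under every scaling, pseudocount and count minimum tried. Set against the tet-control library of 6 h alone, 1 member was lower at 6 h in place of 2. With a 1.5-fold threshold, 5 members were lower at 24 h in place of 2, and 4 were higher between the lines at 0 h in place of 2. With a pseudocount of 5, 0 were higher between the lines at 0 h. Of 126 single values (7 members, 3 differences, 6 settings), 114 stayed within their counting interval, 12 moved beyond it, 6 of them with a pseudocount of 5, and 0 of the values past 2-fold changed sign. The 6 h value of CDKN2C, near 0, ranged from -0.03 to 0.03. Plain CPM moved the median of all genes at 24 h from -0.02 to 0.15, and CDKN1A was then at -1.90, CDKN2C at -0.75 and CDKN3 at -0.67. The deposited TPM gave 3 members lower at each time, a pseudocount of 0.1 gave 3 at 24 h, and no count minimum gave 3 at 6 h and 3 higher at 0 h, in both cases by CDKN1C. Culture-to-culture variation was not measured.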
